A study of Mus musculus with 104 samples.

Results

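The 66 control neurons of a patch-seq study of mouse substantia nigra were divided by whether their library held Slc17a6, the gene of the vesicular glutamate transporter VGLUT2. A library was called Slc17a6-positive when Slc17a6 reached at least 10 CPM, the count scaled to the total gene counts of the library, and Slc17a6-negative below that. The sides were thus chosen by a measured value, and 31 of the 66 control neurons were positive and 35 negative, out of 104 libraries in all. In patch-seq the content of a single neuron is drawn into a glass pipette and sequenced, here as full-length cDNA made by the Smart-seq2 protocol. The study is about fluorescent reporters of Lewy pathology, the α-synuclein inclusions of Parkinson disease, and its design text describes the picking of inclusion-bearing neurons from acute midbrain slices. The other 38 libraries are titled experiment, and every library carries the label dopaminergic neuron. The labels used here give no strain, genotype, age, treatment or animal for any library, and do not say what made a neuron a control.

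VGLUT2 loads glutamate into synaptic vesicles, and a subset of midbrain dopaminergic neurons carries it beside the dopamine machinery and can release both transmitters. Such neurons are known mainly from the ventral tegmental area and from the lateral and dorsal substantia nigra, whereas the ventral tier of the nigra, marked by Sox6, is known for few of them. Dorsal-tier and tegmental dopaminergic neurons are marked by the calcium-binding protein calbindin (Calb1), and the ventral tier holds a subtype with the retinaldehyde dehydrogenase Aldh1a1.

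As a description of the rule, Slc17a6 had 0 counts in 24 of the 66 control libraries and lay above 0 but below 10 CPM in 11. Among the 31 positive libraries it ran from 11.4 through a median of 43.8 to 623 CPM. The nearest libraries below the cut had 5.41, 6.24 and 6.48 CPM and the nearest above it 11.4, 12.6 and 13.8 CPM, which rest on 4 to 17 reads each. At least 100 CPM were reached by 7 libraries, of which 6 had control titles 1 to 10. No library lay between 6.48 and 11.4 CPM.

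**Figure D1:**
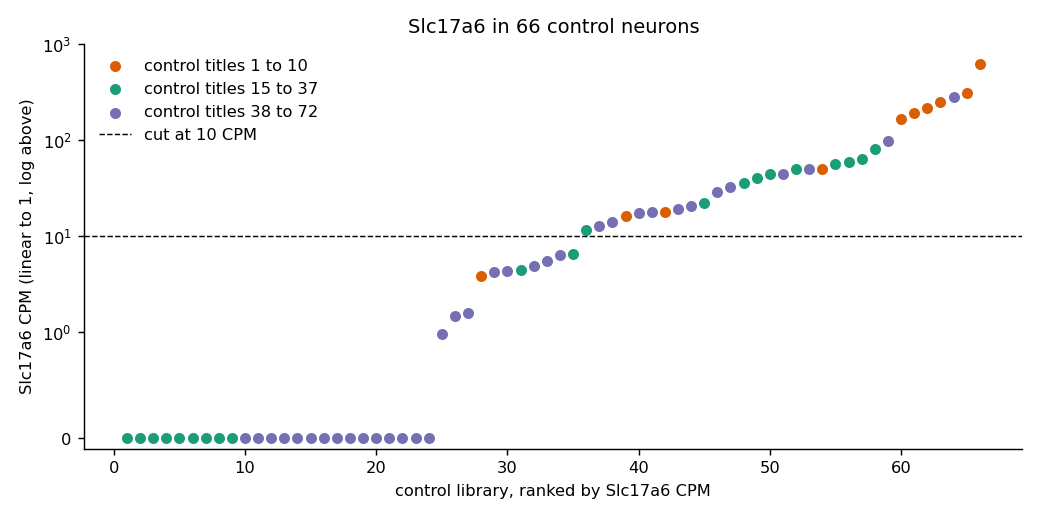
Slc17a6 CPM (vertical axis, linear up to 1 and logarithmic above) in each of the 66 control libraries (horizontal axis, ranked), coloured by the number in the sample title. The dashed line is the cut at 10 CPM, with 35 libraries below and 31 above, and 6 of the 7 libraries at 100 CPM or more have titles 1 to 10.

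The sides did not hold the same mix of title numbers, a numbering that the labels do not call a batch. Of control titles 1 to 10, 9 libraries were positive and 1 negative, against 10 and 11 of titles 15 to 37 and 12 and 23 of titles 38 to 72. The positive libraries of titles 1 to 10 also had a median mitochondrial share of 0.593% of counts, against 2.38% and 3.55% in the positive libraries of the later titles. Ratios are therefore given with titles 1 to 10 and without them, or within the later title blocks; leaving them out leaves 22 positive and 34 negative libraries. Gene counts per library had medians of 1109060 on the positive and 1003657 on the negative side, and genes detected after thinning to 400000 counts had medians of 8264 and 8558. No neuron is tied to an animal, so each side counted as 1 sample and no test was made. Intervals are 95% and cover counting error only, which is far smaller than the spread between neurons. Those of ratios cover the counting error of the positive side alone.

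Transcripts of dopaminergic neurons were found on both sides, at unequal levels. Th, the rate-limiting enzyme of dopamine synthesis, was read in every control library, from 1128 through a median of 8178 to 20201 CPM in positive neurons and from 3308 through 10043 to 27011 CPM in negative neurons. The ranges overlapped over most of their length. The lowest Th values, 1128 and 1135 CPM, were those of control 5 and control 7. These had the most Slc17a6 of all control libraries, 623 and 307 CPM. Their oligodendrocyte markers summed to 3667 and 4681 CPM, against a positive median of 779 CPM. The pooled Th level, from counts summed over a side, was 0.654 times that of the negative side (0.652 to 0.657), with 0.704 in titles 15 to 37 and 0.705 in titles 38 to 72. Slc6a3, the dopamine transporter, was at 0.777 times the negative side and at 0.902 without titles 1 to 10. Slc18a2, the vesicular monoamine transporter, was at 0.930 and 1.05 times, and Ddc, which makes dopamine from L-DOPA, at 0.839 and 1.03 times. Without titles 1 to 10, Th and Slc6a3 thus stayed below the negative side, and Slc18a2 and Ddc did not.

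A gene was counted as past the fold when the sides differed 1.5-fold or more, one way, in 3 measures: pooled CPM, the mean of library CPM, and pooled CPM without the highest library of each side. Of 9110 expressed genes, 799 were higher (8.77%) and 724 lower (7.95%) in the Slc17a6-positive control neurons by this rule. These shares are the background for the counts of each gene list. Without titles 1 to 10 the numbers were 513 higher (5.72%) and 792 lower (8.83%) of 8965 genes expressed there, and 561 and 813 over the same 9110 genes. By the difference of mean log2(CPM + 1) alone, 1218 genes were higher and 1730 lower. Of the 799 and 724 genes, 391 and 449 were past the fold in that direction in the remaining libraries too, which are part of the whole comparison.

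Of 25 expressed genes of dopaminergic identity, 1 was higher (4%) and 2 were lower (8%) past the fold, beside 8.77% and 7.95% of all expressed genes. The share of lower genes was thus near that of all genes. The list's median log2 ratio was -0.24, against 0.05 over all expressed genes. The median was -0.01 without titles 1 to 10. With only libraries of at least 50 CPM called positive it was -0.77. In experiment neurons it was -0.62, against -0.13 over all expressed genes. Gfra1, the receptor that binds GDNF, a survival factor of these neurons, was the gene that was higher. It ran from 0 through a median of 131 to 858 CPM in positive neurons and from 0 through 24.7 to 724 CPM in negative neurons, with at least 10 CPM in 25 of 31 and 19 of 35. The sides overlapped, and more negative neurons were at 0 (13 against 5). The pooled ratio was 3.32 (3.25 to 3.38), 4.60 without titles 1 to 10, 1.54 in titles 15 to 37 and 7.62 in titles 38 to 72. In titles 1 to 37 taken as a whole Gfra1 was lower in positive neurons, at a log2 ratio of -0.43, and titles 1 to 10 gave 10.1% of its positive counts. The genes that were lower were Lmx1b, a transcription factor of midbrain dopaminergic fate, at 0.380 times the negative side, and Kcnj6, the GIRK2 potassium channel through which dopamine and GABA receptors quieten the cell, at 0.518 times. Without titles 1 to 10 they were at 0.571 and 0.676 times.

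The ventral-tier list split. Sox6, the transcription factor that marks the ventral tier, was at 10 CPM or more in 11 of 31 positive and 25 of 35 negative neurons. It ran from 0 through a median of 1.88 to 124 CPM in positive neurons and from 0 through 38.9 to 362 CPM in negative neurons. Low and absent values were thus common among the positive neurons, although the highest of them exceeded the negative median. The pooled ratio was 0.344 (0.318 to 0.372) and was 0.450 without titles 1 to 10, 0.871 in titles 15 to 37 and 0.417 in titles 38 to 72. Sox6 lies on the minus strand at chr7:115470872-116038796 of mm10. Ndnf, a secreted neurotrophic protein, was lower as well, with 0, 27.6 and 820.0 CPM as the lowest, median and highest positive values and 0, 214 and 649 CPM as the negative ones. Its pooled ratio was 0.493 over all control neurons, 0.374 in titles 15 to 37 and 0.337 in titles 38 to 72, so it was lower in both of these sets.

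Other genes of the same list were higher in the Slc17a6-positive neurons. Aldh1a1 ran from 0 through a median of 410.5 to 7837 CPM in positive neurons and from 0 through 95 to 12300.3 CPM in negative ones. At least 10 CPM were found in 24 neurons on each side, so the sides differed in the level and hardly in the share of neurons with the transcript. The pooled ratio was 2.90 (2.87 to 2.93), and it was 3.40 in titles 15 to 37 and 2.17 in titles 38 to 72. Aldh1a7, a close paralogue whose reads may not be fully separable from those of Aldh1a1, had a ratio of 2.35, and 3.16 without titles 1 to 10. Anxa1, a phospholipid-binding protein that marks a subset of Aldh1a1 neurons, had at least 10 CPM in 9 positive and 4 negative neurons and a pooled ratio of 11.3, or 8.46 without titles 1 to 10. A single library gave 32% of its positive counts. Over its 7 expressed genes the list had 3 members higher and 2 lower, with and without titles 1 to 10, and a median log2 ratio of 0.95 that was 0.37 without those titles and -0.07 in titles 15 to 37. The name of the list therefore describes no common direction here.

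**Figure D2:**
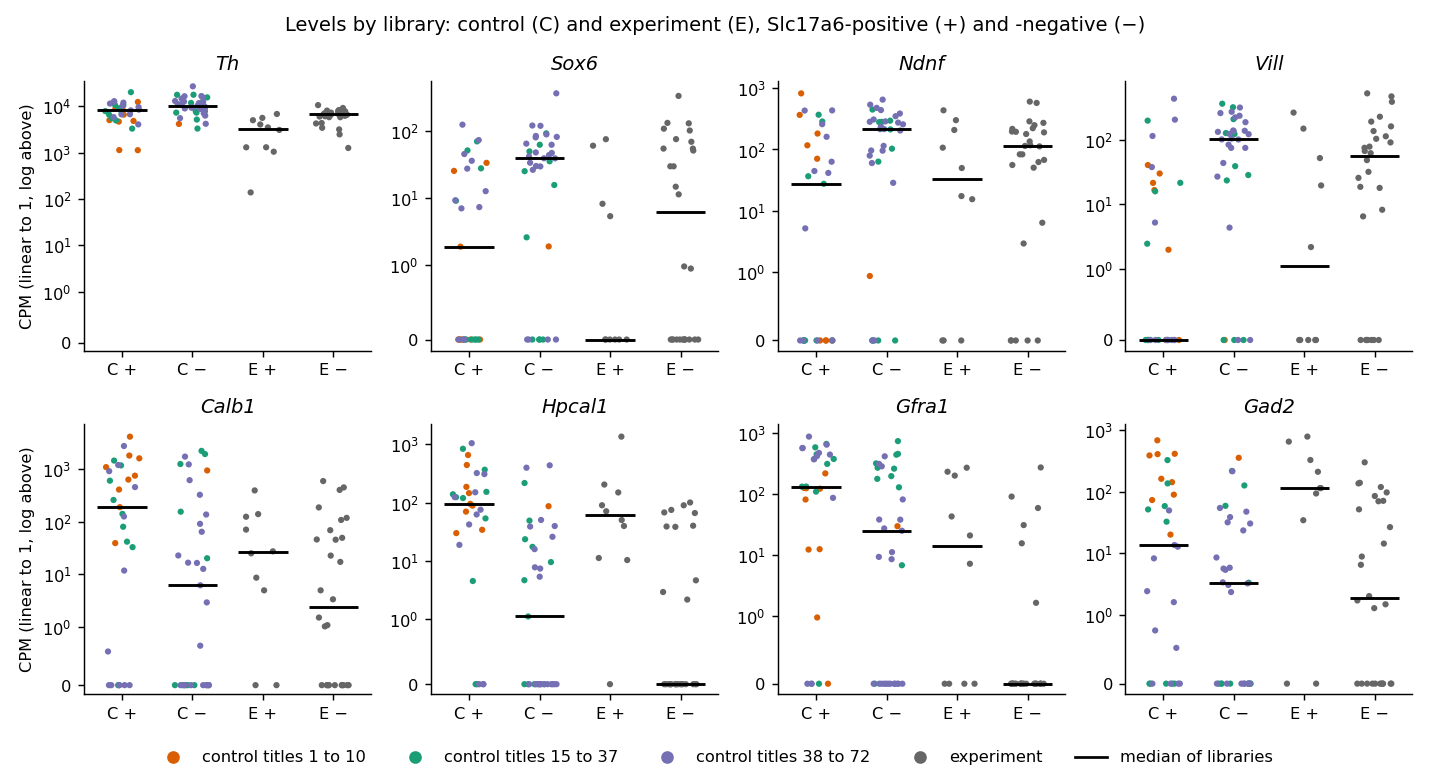
CPM of 8 genes (vertical axes, linear up to 1 and logarithmic above) in single libraries of control (C) and experiment (E) neurons, divided into Slc17a6-positive (+) and -negative (−). Points are libraries coloured by title block and bars are medians; the Hpcal1 median is 95.5 CPM in positive and 1.12 CPM in negative control neurons, and that of Vill is 0 and 105 CPM.

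The dorsal-tier and tegmental list had a median log2 ratio of 1.69 over its 8 expressed genes, of which 5 were higher and 0 lower. Calb1 ran from 0 through a median of 188 to 4132 CPM in positive neurons and from 0 through 6.15 to 2216 CPM in negative neurons, with at least 10 CPM in 23 of 31 and 17 of 35. Titles 1 to 10 gave 61.7% of the positive counts. The pooled ratio of 2.42 (2.39 to 2.44) was 1.53 without them, 0.516 in titles 15 to 37 and 2.09 in titles 38 to 72, so the direction was not shared by all title blocks. Lpl, lipoprotein lipase, had a ratio of 9.98 and 3.25 without titles 1 to 10, and Neurod6, a neuronal transcription factor of part of the tegmental area, 7.13 and 3.82. Both were absent from most neurons, with at least 10 CPM in 10 and 7 of 31 positive neurons and in 3 and 2 of 35 negative ones. Without the highest library of each side the ratios were 16.5 and 12.2. Grp, gastrin-releasing peptide, reached 10 CPM in 9 positive and 2 negative neurons, and 96.4% of the negative counts came from the negative library of titles 1 to 10. Adcyap1, which encodes the peptide PACAP, had a ratio of 4.32 that was 6.89 without the highest library of each side and 0.316 without titles 1 to 10, where both sides were under 10 CPM. Without those titles the list kept 3 genes past the fold and its median was 0.15, and Otx2, a tegmental transcription factor, was too low to be counted as expressed.

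The other vesicular glutamate transporters and the genes of glutamate metabolism did not follow Slc17a6, whereas most of the few expressed glutamatergic transcription factors were higher. Slc17a7, which encodes VGLUT1, reached 10 CPM in 6 of 31 positive and 7 of 35 negative neurons, and Slc17a8, which encodes VGLUT3, had no count in any control library. Of 16 expressed genes of glutamate metabolism and transport, 2 were higher past the fold, and these were the GABA-synthesising enzymes Gad1 and Gad2 that the list also holds; without titles 1 to 10 the numbers were 0 higher and 1 lower. Among 20 listed transcription factors of glutamatergic neurons only 5 were expressed, and 4 of these were higher, or 3 higher and 1 lower without titles 1 to 10. Tcf7l2, a Wnt-pathway transcription factor abundant in thalamic glutamatergic neurons, reached 10 CPM in 15 of 31 positive and 5 of 35 negative neurons. Its values ran from 0 through a median of 6.82 to 690.1 CPM on the positive side and from 0 through 0 to 139 CPM on the negative side. The pooled ratio was 9.63 (9.29 to 9.98), with 91.1% of the positive counts in titles 1 to 10, and it was 2.25 without them. Ebf3, another neuronal transcription factor, was at 10 CPM in 18 positive and 13 negative neurons, with ratios of 2.95 and, without titles 1 to 10, 3.45. Ebf1 had a ratio of 3.47 that was 0.354 without titles 1 to 10, where both sides were under 10 CPM.

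Transcripts of GABAergic neurons, which lie beside the dopaminergic cells in the nigra, moved with the first titles. Gad1 and Gad2 were 1.64 and 2.99 times as high on the positive side, and titles 1 to 10 held 85.6% and 91.6% of the positive counts. Without those libraries the ratios were 0.388 and 0.541, and within titles 15 to 37 they were 0.891 and 0.971. Of 4 expressed GABAergic markers 3 were higher over all control neurons and 0 were higher without titles 1 to 10. The list's summed level had medians of 294 CPM in positive and 236 CPM in negative neurons, with ranges of 21.8 to 1594 and 20 to 1148 CPM. Slc32a1, the vesicular GABA transporter that defines these neurons, was not expressed by the rule above, at pooled levels of 2.04 and 1.84 CPM. Whether neighbouring GABAergic material had a part in the results was not tested.

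Glial transcripts differed between the sides as well. Of 9 expressed oligodendrocyte markers 5 were higher and 0 lower in positive neurons, and 2 were higher without titles 1 to 10. Their summed level had a median of 779 CPM (range 54.8 to 9709 CPM) against 326 CPM (39.8 to 9643 CPM). Mbp, myelin basic protein, had a ratio of 1.25, which was 1.21 without titles 1 to 10. All 9 expressed microglial markers were lower, and 8 without titles 1 to 10, at summed medians of 71.3 CPM (0 to 1574 CPM) and 189 CPM (0 to 3207 CPM). Within titles 15 to 37 the median log2 ratio of the microglial list was 0.63, in the other direction. Astrocyte markers summed to medians of 243 and 204 CPM. The part of these transcripts in the results was not tested, and the counts of genes past the fold without the 25% of control libraries highest in glial markers were 780 and 844.

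A calcium sensor and a calmodulin regulator were higher in both later title blocks. Hpcal1, a neuronal calcium sensor, ran from 0 through a median of 95.5 to 1046 CPM in positive neurons and from 0 through 1.12 to 436 CPM in negative neurons. At least 10 CPM were found in 25 of 31 positive and 12 of 35 negative neurons, and 5 and 17 neurons were at 0. The sides overlapped, with most positive neurons at 10 CPM or more and most negative neurons below. The pooled ratio was 3.91 (3.81 to 4.01), 4.12 without titles 1 to 10, 8.96 in titles 15 to 37 and 3.87 in titles 38 to 72. Hpcal1 lies on the plus strand at chr12:17690856-17791933 of mm10. Pcp4, which modulates calmodulin, was present in nearly all neurons and was higher in level, from 2.94 through a median of 68 to 316 CPM against 0 through 32.4 to 224 CPM. Its ratio was 2.24 (2.16 to 2.32), 2.20 in titles 15 to 37 and 2.60 in titles 38 to 72. In the list of calcium channels and calcium handling 6 of 31 expressed genes were higher (19.35%) and 0 lower. Of all expressed genes 8.77% were higher and 7.95% lower. Without titles 1 to 10 the counts in the list were 3 and 0, beside 561 and 813 of all 9110 genes. The list's median log2 ratio was 0.06.

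Of 37 expressed potassium, sodium and HCN channel genes 8 were higher (21.6%) and 4 lower (10.8%), beside 8.77% and 7.95% of all expressed genes. Without titles 1 to 10 the counts were 1 and 4, beside 561 and 813 of all 9110 genes. Kcns3, a modulatory potassium channel subunit, ran from 0 through a median of 62.5 to 504 CPM in positive neurons and from 0 through 260.5 to 627 CPM in negative neurons. Its pooled ratio was 0.447 (0.433 to 0.460) and 0.631 without titles 1 to 10. It was 0.552 in titles 15 to 37 and 0.651 in titles 38 to 72, so the gene was lower in both of these blocks. Kcna1, the Kv1.1 channel, had a ratio of 4.28 that was 1.78 without titles 1 to 10. In the synaptic vesicle list 8 of 41 genes were higher (19.5%) and 0 lower, and 2 were higher without titles 1 to 10. Among the 8 was Unc13c, a vesicle-priming factor, at 14.5 and 1.95 times.

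Of 22 expressed trophic factors and receptors 2 were higher and 6 lower, or 9.09% and 27.3%, beside 8.77% and 7.95% of all expressed genes, and 2 and 7 were without titles 1 to 10. Their median log2 ratio was -0.13, with 8 genes above 1, and it was 0.02 in titles 15 to 37 and -0.44 in titles 38 to 72. The neurotrophin Ntf3 reached 10 CPM in 10 of 31 positive and 16 of 35 negative neurons, with medians of 0 and 8.65 CPM. Its pooled ratio was 0.441 (0.409 to 0.476), 0.326 in titles 15 to 37 and 0.166 in titles 38 to 72. Bdnf, the related factor, had medians of 8.07 and 33.7 CPM and ratios of 0.421, 0.130 and 0.325 over the same sets. Ntrk3, the receptor of neurotrophin-3, was at 0.305 times, and Fgfr1, a fibroblast growth factor receptor, at 0.630 times, or 0.333 and 0.509 times without titles 1 to 10. Among 42 expressed adhesion and synapse-organising genes 6 were higher (14.3%) and 8 lower (19.05%), beside 8.77% and 7.95% of all expressed genes. Without titles 1 to 10 the counts were 4 and 3, beside 561 and 813 of all 9110 genes, so the shares there lay near those of all genes. Cbln2, a secreted synapse organiser, reached 10 CPM in 9 positive and 2 negative neurons, at a ratio of 5.00 (4.65 to 5.37) that was 5.66 without titles 1 to 10 and 17 without the highest library of each side. The leucine-rich postsynaptic protein gene Lrrtm1 had ratios of 2.61 and 3.33. Ptprd, a presynaptic receptor phosphatase, and Cntn4, a contactin, were at 0.440 and 0.516 times, and both lay below 1 in titles 15 to 37 and in titles 38 to 72. Of 11 expressed monoamine and acetylcholine receptors, 3 were higher (27.3%) and 1 lower (9.09%), and 2 and 1 without titles 1 to 10. Chrm5, the M5 muscarinic receptor of dopaminergic neurons, was at 1.68 times, Htr2c, a serotonin receptor, at 2.85 times, and Adrb1, an adrenergic receptor, at 0.472 times. Without titles 1 to 10 these ratios were 1.96, 1.36 and 0.598. That of Htr2c was 12.9 without the highest library of each side and 1.00 in titles 38 to 72. Htr2c reached 10 CPM in 14 of 31 positive and 2 of 35 negative neurons, and in 3 of 12 and 1 of 23 in titles 38 to 72. Its negative level thus rests on few libraries.

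The genes with the largest ratios were mostly absent from most neurons. The 14 highest were Dgkg, Col9a2, Ermn, Nell1, Shox2, Unc13c, Npy1r, Fam19a2, Tcf7l2, Pls1, Lpl, Sema5a, Igfbp4 and Runx1t1, at pooled ratios of 6.38 (Runx1t1) to 18.2 (Ermn). None of them reached 10 CPM in more than 20 of the 31 positive neurons, and in the negative neurons 1 to 9 of 35 did. Dgkg, a diacylglycerol kinase, had a median of 2.10 CPM in positive and 0 CPM in negative neurons and a ratio of 15.2, which was 3.28 without titles 1 to 10. Npy1r, a neuropeptide Y receptor, reached 10 CPM in 11 and 3 neurons, at a ratio of 12.9 that was 17.8 without those titles. Igfbp4, which binds insulin-like growth factors, reached 10 CPM in 15 of 31 and 2 of 35 neurons, at ratios of 8.53 and 4.81. Col9a2, a collagen chain, reached it in 13 and 3, at ratios of 12.1 and 8.49. Ermn is a myelinating oligodendrocyte gene, with ratios of 18.2 and 10.1, and moved with the oligodendrocyte markers given above. Pls1, an actin-bundling protein, drew 51.9% of its positive counts from 1 library of titles 1 to 10 and reached 10 CPM in 5 neurons of each side. Without titles 1 to 10, 12 of the 14 stayed past the fold; the ranking required titles 38 to 72 to share the direction, so the direction there was fixed by the choice of genes. Without the highest library of each side the ratio was 60.04 for Nell1, 46.9 for Shox2, 26.9 for Unc13c, 23.9 for Sema5a, 18.8 for Igfbp4, 16.5 for Lpl and 7.69 for Pls1.

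The 14 lowest were Tmem39a, Smcr8, Otor, Inhbb, Fgf11, Usp28, Cyp2j6, Gdpd5, Bard1, Grin2c, Dpy19l3, Rnf166, Klhl21 and Rnft1, at pooled ratios of 0.0751 (Tmem39a) to 0.239 (Rnft1). The median was 0 in the positive neurons for all 14, and 7 to 18 of the 35 negative neurons reached 10 CPM. Grin2c, an NMDA receptor subunit, reached it in 3 of 31 and 16 of 35 neurons, at a ratio of 0.196 that was 0.300 without titles 1 to 10. Inhbb, the inhibin beta B chain, reached it in 5 and 14 neurons, at ratios of 0.115 and 0.112. All 14 stayed past the fold without titles 1 to 10, where the choice of genes again fixed the direction of most libraries. Without the highest library of each side the ratio was 0.0890 for Grin2c, 0.0655 for Bard1 and 0.00914 for Otor. In titles 15 to 37 alone, however, the direction of Tmem39a, Otor and Usp28 was the opposite.

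**Figure D3:**
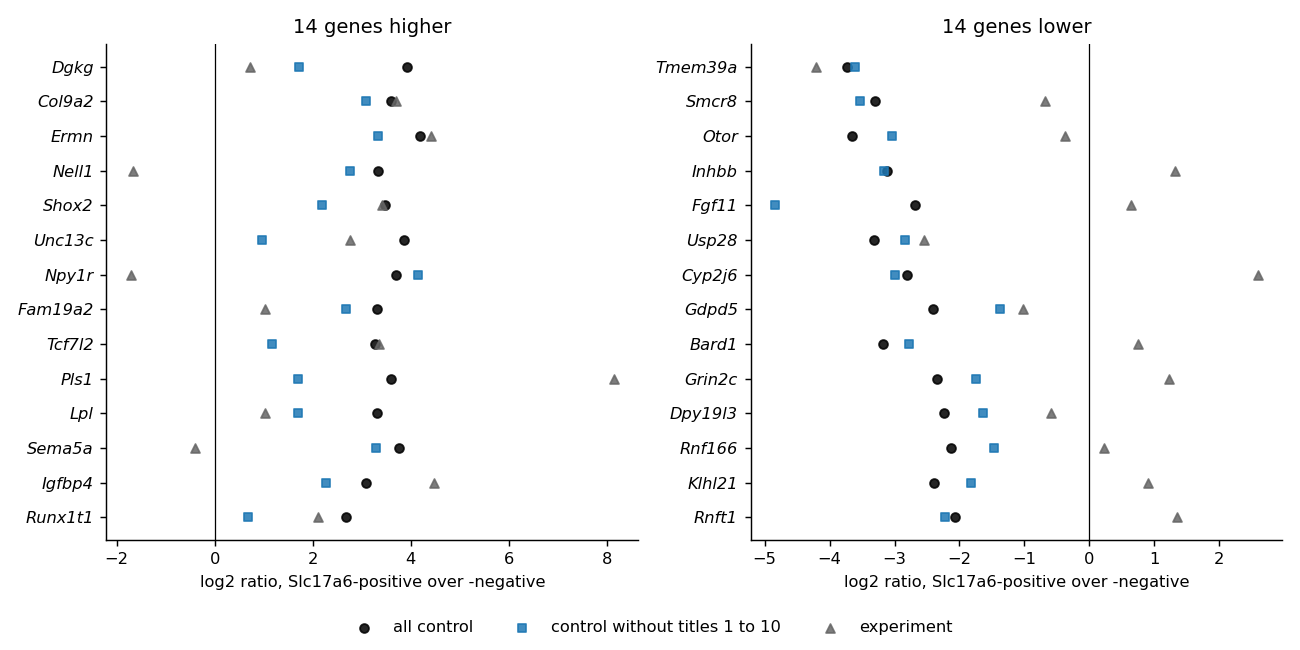
Log2 ratio of pooled CPM, Slc17a6-positive over Slc17a6-negative (horizontal axes), of the 14 highest and 14 lowest genes by the ranking. Circles are all control neurons, which chose the genes, squares control neurons without titles 1 to 10 and triangles experiment neurons; 11 of the 14 higher and 6 of the 14 lower genes lie on the same side of 0 in experiment neurons.

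Because ratios of such genes rest on few neurons, the share of neurons at 10 CPM or more was also compared, a measure added after the values had been seen. It differed by at least 30 percentage points in 91 of the 9110 genes, 39 with more positive neurons and 52 with fewer. Spp1, osteopontin, had the largest difference towards the positive side, with 19 of 31 and 5 of 35 neurons and medians of 15.6 and 0 CPM. Its pooled ratio was 5.11 (4.94 to 5.28), 14.7 in titles 15 to 37, 6.69 in titles 38 to 72 and 8.96 without the highest library of each side. Vill, a villin-like actin-binding protein, had the largest difference towards the negative side, with 11 of 31 and 28 of 35 neurons. It ran from 0 through a median of 0 to 437 CPM in positive neurons and from 0 through 105 to 366 CPM in negative neurons, so most positive neurons had none, while the highest of them exceeded every negative one. The pooled ratio was 0.281 (0.265 to 0.298), 0.224 in titles 15 to 37, 0.402 in titles 38 to 72 and 0.179 without the highest library of each side. Lypd1, which binds nicotinic receptors, reached 10 CPM in 9 of 31 and 23 of 35 neurons, but in 3 of 10 and 3 of 11 neurons in titles 15 to 37. Sox6 was among the 15 genes with the largest differences towards the negative side.

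The same cut in the experiment neurons, which had no part in the rule that ranked genes by their ratio in control neurons, gave 10 positive and 28 negative libraries. The positive share was 26.3% (exact binomial interval 13.4 to 43.1%) there and 47% (34.6 to 59.7%) in control neurons. Of 8930 expressed genes 1182 were higher (13.2%) and 1786 lower (20%) in the positive experiment neurons. These shares exceed the 8.77% and 7.95% of control neurons, and the reason was not tested. Of the 799 genes higher in control neurons, 55.3% had a ratio above 1 in experiment neurons, against 48.4% of all expressed genes with a ratio above 1 in control neurons. Of the 724 lower genes 63.3% lay below 1, against 60.9%. Among those also expressed in experiment neurons, 27.9% of 656 higher genes were past the fold the same way there, against 13.95% of all expressed genes above 1 in control neurons. For 586 lower genes the share was 31.7%, against 22.9% of all those below 1. Positive experiment neurons also carried more of other cells' transcripts, with median summed levels of 3672 against 430.4 CPM for oligodendrocyte markers and 1157 against 273 CPM for GABAergic markers. Their part in the ratios was not tested.

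Some genes did keep their direction. Hpcal1 reached 10 CPM in 9 of 10 positive and 8 of 28 negative experiment neurons, with medians of 60.8 and 0 CPM and a ratio of 9.10. The size of that ratio leans on experiment 49, at 1355 CPM, where the next highest positive library had 204.5 CPM. Pcp4 had medians of 84.8 and 34.6 CPM and a ratio of 2.07, and Gfra1 had medians of 13.9 and 0 CPM and a ratio of 5.82. The pooled Gfra1 ratio rests mainly on experiments 1 and 2, at 228 and 266 CPM. These were the deepest positive experiment libraries, with 2779816 and 3094036 gene counts. Vill reached 10 CPM in 4 of 10 and 19 of 28 neurons at a ratio of 0.279, Sox6 in 2 of 10 and 14 of 28 at 0.296, and Ndnf in 7 of 10 and 21 of 28 at 0.610. Th had medians of 3299.5 and 6659.8 CPM and a ratio of 0.517. The lowest positive value of Th was 138 CPM in experiment 27, whose astrocyte markers summed to 10800 CPM. Others went the opposite way in experiment neurons, such as Aldh1a1 at 0.500, Anxa1 at 0.304, Npy1r at 0.304 and Nell1 at 0.313 times the negative side. Gad2 was at 5.32 times.

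Finally, 3 sets that share no library were set side by side, control titles 15 to 37, control titles 38 to 72 and the experiment neurons, also after the values had been seen. Of the 9110 expressed genes, 98 higher (1.08%) and 102 lower (1.12%) were past the fold over all control neurons and at least 1.5-fold apart in pooled CPM in that direction in each of the 3 sets. Dropping the first condition gave 125 and 181 genes, or 1.37% and 1.99% of all. In the single sets 20.3%, 14.4% and 21.3% of genes were that much higher and 22%, 17.2% and 31% that much lower, and these shares multiply to 0.623% and 1.18%. That product takes every gene as equally likely to pass in each set, so it does not measure what chance gives. The 98 higher genes included Hpcal1, Pcp4, Gfra1, Spp1, Igfbp4, Col9a2, Shox2, Tcf7l2, Cbln2, Chrm5 and Kcna1. In experiment neurons Igfbp4 rests on 1 library at 10 CPM, and the ratio of Gfra1 mainly on experiments 1 and 2. The 98 genes also included the oligodendrocyte genes Mog, Mal and Ermn. The 102 lower genes included Ndnf, Vill, Ntf3, Bdnf, Lmx1b, Cntn4, Fgfr1, Adrb1 and Trpc6. Trpc6, a cation channel, reached 10 CPM in 15 of 31 positive and 28 of 35 negative control neurons, with medians of 9.10 and 106 CPM, and in 7 of 10 and 21 of 28 experiment neurons. For Bdnf the experiment neurons gave a pooled ratio of 0.299 but medians of 20.6 and 7.83 CPM, so the direction there rests on the high libraries.

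Lists of general cell function differed little. None of 76 nuclear-encoded respiratory chain genes and none of 29 cytosolic chaperones was past the fold, with median log2 ratios of -0.03 and -0.02. Of 23 Parkinson disease genes 0 were higher and 1 was lower, and of 27 stress genes of the endoplasmic reticulum and the integrated stress response 1 was higher and 1 lower; without titles 1 to 10 the lower genes were 2 in each of these lists. Mitochondrially encoded respiratory genes were lower in 6 of 8 cases, and in 0 without titles 1 to 10, the libraries with the low mitochondrial share. Immediate early genes, which neuronal activity induces within minutes, went the other way round. Over all control neurons 1 of 19 was higher and 2 were lower at a median log2 ratio of 0.10, and without titles 1 to 10 the numbers were 0 and 10 at a median of -0.65. Fos was at 1.07 times the negative side over all control neurons and at 0.861 times without those titles. Egr4, a further factor of the group, was at 0.540 and 0.263 times. In experiment neurons the median of the list was 0.45.

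**Figure D4:**
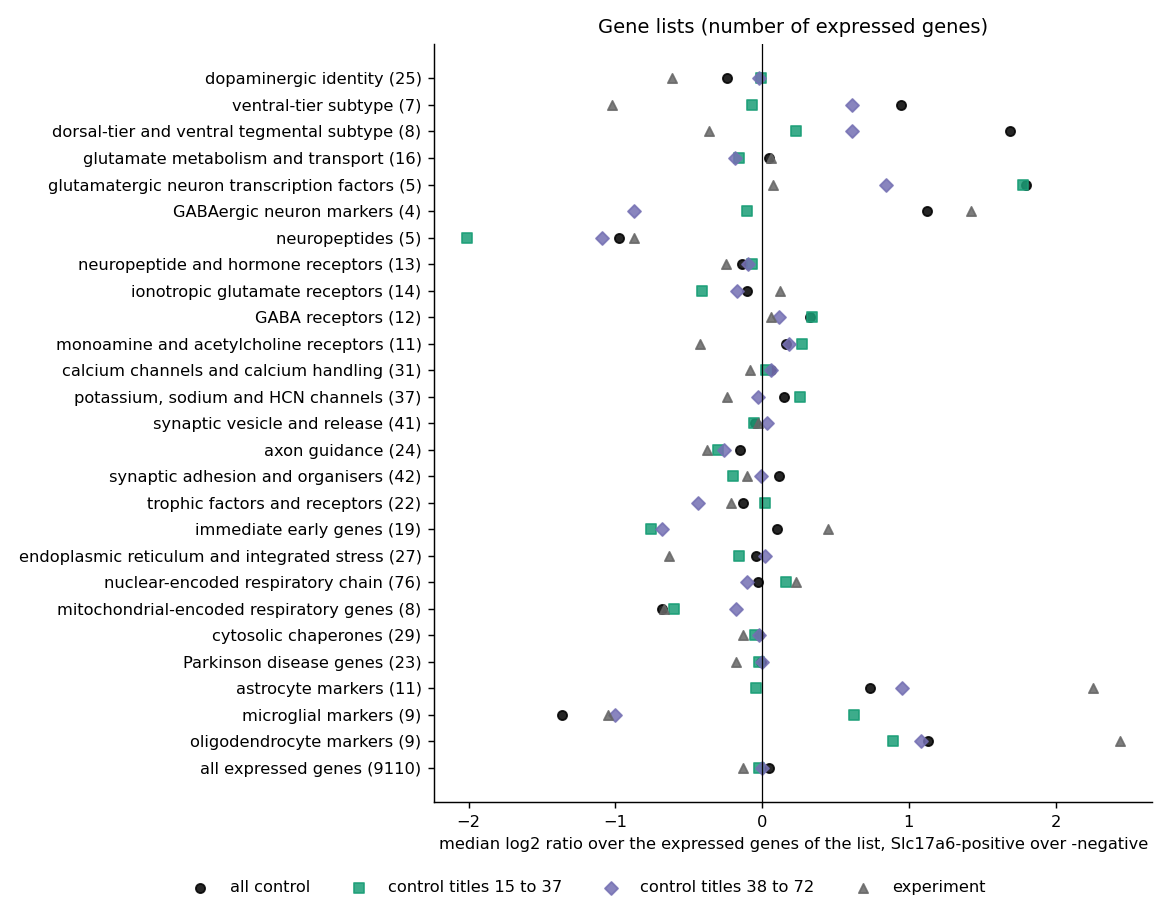
Median log2 ratio, Slc17a6-positive over Slc17a6-negative (horizontal axis), over the expressed genes of each list with 4 or more such genes (vertical axis, number of genes in brackets). Circles are all control neurons, squares titles 15 to 37, diamonds titles 38 to 72 and triangles experiment neurons; the dorsal-tier list has 1.69 over all control neurons, but 0.23 and 0.61 in the later title blocks.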

How the data were processed

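The authors deposited their read counts, one row for each gene symbol, in 1 table with 104 libraries. Per the labels' protocols, pipette contents were amplified by Smart-seq2 and made into libraries with HyperPlus reagents. The submitters' processing notes name STAR 2.5.3a, featureCounts 1.5.3 and mm10. How strand and reads shared by genes were handled, and with which annotation, is not given, so close paralogues and overlapping genes are uncertain.

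CPM was computed from the deposited counts over 45808 gene rows, leaving 92 ERCC spike-in rows out. Libraries held 153770 to 2577694 gene counts among control neurons. Pooled CPM is the summed count of a side over its summed gene counts, with an exact Poisson interval. The interval printed with a ratio covers the counting error of the positive side's count only. The negative side's count was taken as exact, so these intervals are too narrow, most of all where the negative side has few counts. A side below 3 counts was raised to 3 for calls and medians. Expressed genes had a pooled CPM of at least 10 over the control libraries and a count in at least 25% of the libraries of a side. For the thinned measures, 4 positive and 2 negative libraries below 400000 counts were left out.

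The labels tie no neuron to an animal, so no test was made. Identical counts were found in 0 pairs of control libraries. Slc17a6 itself was left out of the findings. The members, the 32 gene lists and the naming rule were chosen with earlier results of these data known. The rule took genes past the fold, with both title sets (1 to 37 and 38 to 72) in that direction and a thinned share of libraries with a count at least 10 percentage points apart, ranked by the smallest of the 3 absolute log2 ratios, 14 each way. Unnamed gene models, pseudogenes and ribosomal, mitochondrial, haemoglobin and sex-linked genes were left out. Subtype and transmitter genes were named whatever their values, with up to 4 per list, and genes of the share and 3-set comparisons after their values were seen. Positions are from GENCODE M21, whose assembly is that of mm10. Calculations used Python 3.11.15, numpy 2.4.6, pandas 2.3.3 and scipy 1.17.1 and were tested on simulated data. The alternatives are in the closing section. Results for some genes of these lists are not reported here.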

Additional observations from a re-analysis of the deposited data

Results flagged for a closer look

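Among the 10 Slc17a6-positive experiment neurons, 12 library measures and gene levels were looked at for a sample far from the others. For normally distributed values the rule flags about 1 in 20 by chance. Several of these measures are skewed, so the rate for them is not known. Experiment 49 stood apart in microglial transcripts, with a summed marker level of 2815 CPM against a median of 153 CPM. Experiment 1 stood apart in Slc18a2, the vesicular monoamine transporter, with 7097 CPM against a median of 1664 CPM.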

How the results depend on the processing

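No paired analysis was possible because the replicate numbers only count libraries within a group and no comparison was a test. The limits are the choice of libraries, more than depth: with 31 and 35 single neurons and many genes absent from most of them, the level of a gene on a side can rest on a few libraries, above all where both sides are under 10 CPM. Alternatives without control titles 1 to 10 and with titles 15 to 37 alone were chosen after seeing the data.

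The numbers of genes past the fold were 799 higher and 724 lower. A single measure in place of 3 gave more, 1121 lower by the mean of library CPM, 1218 and 1730 by mean log2(CPM + 1), and 1288 and 1141 without the highest library of each side. Titles 1 to 37 alone gave 1661 and 1133, titles 38 to 72 alone 1212 lower, titles 15 to 37 alone 1585 lower, and leaving out titles 1 to 10 gave 513 higher. Calling only libraries of at least 50 CPM positive gave 1218 and 1649. A minimum of 1 CPM gave 1257 and 1214, and a 2-fold threshold 281 and 236.

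The median log2 ratio of the ventral-tier list, 0.95, was 0.24 by the mean of library CPM and 0.13 by mean log2(CPM + 1). It was below 0 in titles 1 to 37 (-0.13), in titles 15 to 37 (-0.067) and with positive neurons at 50 CPM or more (-0.14). That of the dorsal-tier list, 1.69, was 1.01 by mean log2(CPM + 1), 0.96 in titles 1 to 37, 0.61 in titles 38 to 72, 0.23 in titles 15 to 37, 0.15 without titles 1 to 10, 1.07 without the 25% of libraries highest in glial markers and 0.81 without the 25% highest in GABAergic markers.

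Single genes past the fold that turned direction were few outside the title blocks, and the cause was not tested. Their log2 ratios follow. Without titles 1 to 10, Gad1 was at -1.37, Gad2 at -0.89, Ebf1 at -1.50 and Adcyap1 at -1.66. In titles 15 to 37, Runx1t1 was at -0.039, Gad2 at -0.042, Gad1 at -0.17, Calb1 at -0.95, Adcyap1 at -2.01, Pls1 at -2.25, Ebf1 at -5.06, Usp28 at 0.26, Tmem39a at 0.63, Cx3cr1 at 1.04 and Otor at 1.36. In titles 1 to 37, Chrm5 was at -0.091, Gfra1 at -0.43 and Aldh1a7 at -0.51. In titles 38 to 72, Adcyap1 was at -1.09, Gad2 at -1.58 and Gad1 at -1.60. With positive neurons at 50 CPM or more, Aldh1a7 was at -0.25, Chrm5 at -0.93, Lrrtm1 at -1.01, Mog at -2.55 and Fgfr1 at 0.000343. With the cut at 1 CPM, Egr4 was at 0.23 and Adrb1 at 0.60. Among libraries at or above the median of genes detected Pls1 was at -0.20, without the 25% highest in GABAergic markers Gad1 was at -0.95, and without the 25% highest in glial markers C1qc was at 0.63. Gad1 and C1qc are themselves among the markers by which those libraries were left out. Their values there are thus not independent of the choice of libraries. Leaving out libraries under 400000 counts reversed 0 of the called genes named.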
